A study of Mus musculus with 12 samples.

Results

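The genes described here are 8 housekeeping genes of pre-mRNA splicing, chosen by name because mutations in them, or in their human counterparts, are tied to retinal degeneration. They are Prpf8, Snrnp200, Prpf6, Prpf3, Prpf4, Prpf31, Rp9 and Dhx38, and each of the 8 symbols matched exactly 1 of the 37991 genes in the expression tables. The retinas came from 8-week-old male mice of 4 classes. The inbred parents made up the F0 C57BL/6J class and the F0 Cast/EiJ class, a C57BL/6J father and a Cast/EiJ mother gave F1 B6xCast, and the reciprocal cross gave F1 CastxB6. Each class had 3 mRNA-seq libraries, 12 in all, and each library was a pool of 6 to 8 retinas, so an error is the spread between pools and not between single mice. The mice carried no engineered allele or treatment. Cast/EiJ is a wild-derived inbred strain that differs from C57BL/6J at many positions, and in the F1 retina both parental alleles share the same nuclei.

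Introns are removed by the spliceosome, which is assembled on each transcript from small nuclear ribonucleoproteins (snRNPs). The U4/U6 and U5 snRNPs enter as one particle, the tri-snRNP, which is then unwound and rearranged into the active enzyme. Every cell needs this machinery, yet dominant mutations in several tri-snRNP proteins are known in humans for a single main consequence, retinitis pigmentosa, a degeneration that begins in rod photoreceptors. For PRPF31 the disease is known to follow loss of function of 1 allele, and the level of the remaining normal allele is known to influence whether a carrier becomes ill.

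The crosses allow a pair of questions. The F0 comparison gives the difference in expression between the strains. The F1 comparison sets the Cast/EiJ allele against the C57BL/6J allele in the same retina, where a difference carried by the gene's own DNA (in cis) persists and one made by other factors of the cell (in trans) does not. Levels are given as FPKM, the fragments per transcript length and library size, where genes are compared with each other. Differences are given as log2 ratios of Cast/EiJ over C57BL/6J, computed from the normalized count equivalents, which are MMSEQ estimates of the read pairs of a gene or an allele. Each F1 allele was scaled by the authors like a whole library, so an allele's count equivalents can be read beside an F0 value, and the F1 library's level is the mean of its alleles. A call means an adjusted p under 0.05 in limma with Benjamini-Hochberg adjustment over all genes tested.

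Depth, as unique hits (read pairs assigned to a single gene and, in F1, to a single allele), ranged from 8158534 to 12363291 per library. Of the 14452 autosomal genes tested between the F0 strains 33.8% were called, 17.2% higher in Cast/EiJ and 16.6% lower. Of the 13414 genes tested between the alleles 47.0% were called, 23.5% higher and 23.5% lower for the Cast/EiJ allele. All 8 splicing factor genes passed both filters on low values. Every count of members below is to be read against these shares, which show that a call is common in this cross.

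The promoters of 3 genes whose Cast/EiJ values were higher are shown first, as a description of the DNA before each gene's start. Prpf3, whose Cast/EiJ values were also higher, is not printed. Where the DNA behind any difference lies was not tested. RefSeq promoter entries (GRCm38.p6) matched 6 of the 8 genes, and the 250 bases before the annotated start are printed in the direction of the gene. Each of these 3 stretches was also found once in NCBI37, the build of the expression tables, ending 1 base before the gene's start there. Capitals mark CCGGAA (the core of ETS-type sites), CCAAT (the CCAAT box) and TAATCC (the core bound by the photoreceptor factor CRX) on either strand. The motifs TATAAA and CACGTG were searched too, and no 2 matches overlapped in these 3 stretches. The sequence is that of the C57BL/6J reference, so it does not show what differs on the Cast/EiJ allele.

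Prpf31 (chr7:3629735-3629984, plus strand): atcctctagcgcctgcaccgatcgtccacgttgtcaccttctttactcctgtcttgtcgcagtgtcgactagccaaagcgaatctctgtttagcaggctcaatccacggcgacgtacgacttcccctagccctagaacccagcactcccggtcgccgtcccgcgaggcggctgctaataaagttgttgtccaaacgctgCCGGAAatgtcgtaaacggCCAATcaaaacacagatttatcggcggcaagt
Snrnp200 (chr2:127208136-127208385, plus strand): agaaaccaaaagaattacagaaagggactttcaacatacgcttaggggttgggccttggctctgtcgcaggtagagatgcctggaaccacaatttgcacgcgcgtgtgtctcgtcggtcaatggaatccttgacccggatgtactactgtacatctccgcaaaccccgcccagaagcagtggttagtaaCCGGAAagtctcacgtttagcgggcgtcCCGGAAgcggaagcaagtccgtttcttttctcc
Prpf8 (chr11:75486527-75486776, plus strand): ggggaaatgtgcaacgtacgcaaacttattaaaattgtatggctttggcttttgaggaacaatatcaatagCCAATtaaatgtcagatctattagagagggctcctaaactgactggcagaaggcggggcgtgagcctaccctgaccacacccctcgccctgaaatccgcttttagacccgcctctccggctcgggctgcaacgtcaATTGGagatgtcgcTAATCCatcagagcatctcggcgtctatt

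CCGGAA stands at position -51 from the start in Prpf31 and at -61 and -33 in Snrnp200. It was also found in the promoters of Prpf6, Prpf4 and of 1 of the 2 annotated starts of Prpf3, which leaves Prpf8 as the only matched gene without it. On NCBI37 these stretches end 9450 bases (Prpf6), 15 bases (Prpf4) and 131 bases (Prpf3) from the gene's start. Over 27025 mouse promoters of the same length, 1 per gene, 12.2% hold CCGGAA, 34.5% hold CCAAT and 6.38% hold TAATCC. Among the 6 matched genes TAATCC was found only in Prpf8, at position -29. None of the 6 holds TATAAA, which 13.0% of all promoters do, and CACGTG (6.05% of all promoters) was found only in Prpf3, at the same start that holds CCGGAA. A match of letters is a description and does not show that a factor binds there.

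The level of the 8 genes spanned more than 10-fold, with Prpf8 and Snrnp200, both of U5, at the top. Prpf8 was at 71.1 FPKM ± 7.02 (SD, n = 12 libraries) and Snrnp200 at 47.8 ± 5.06, above 98.4% and 97.4% of the autosomal genes. Their ranges over the 12 libraries, 57.9 to 83.2 and 39.7 to 56.4, did not meet each other or those of the other genes. Prpf31 followed at 26.0 ± 3.56 FPKM, Prpf6 at 18.9 ± 1.38 and Prpf3 at 16.1 ± 2.25, and each overlapped the next in this order. Dhx38 at 11.9 ± 0.963 and Rp9 at 11.5 ± 2.35 overlapped as well. Prpf4 was lowest, at 5.34 ± 0.335 FPKM, with its highest library at 5.83 and the lowest Rp9 library at 7.31. Rp9 varied most, with an SD of 20.5% of its mean over the 12 libraries, and Prpf4 least, at 6.28%.

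**Figure D1:**
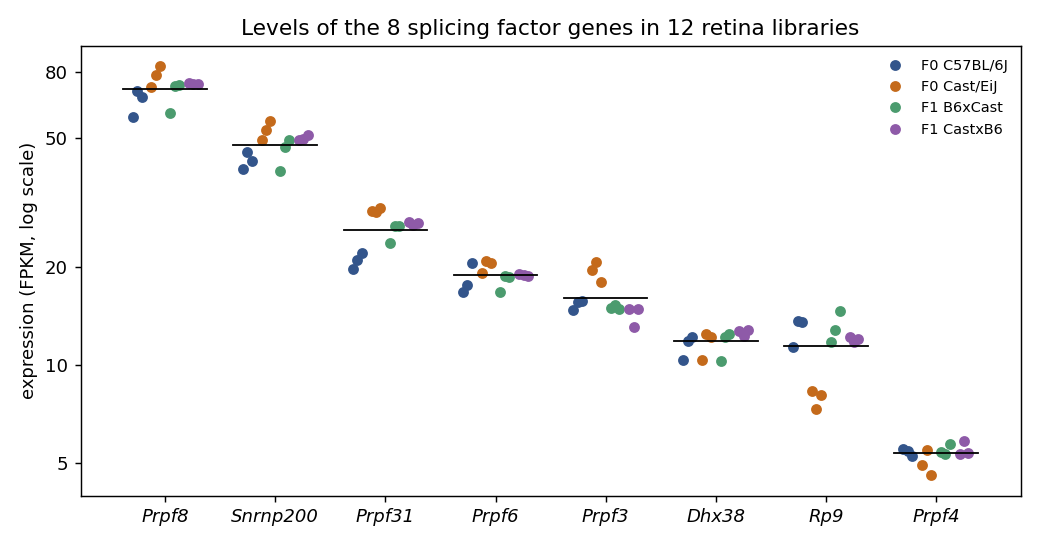
Expression level of the 8 splicing factor genes (FPKM, log scale) in each of the 12 libraries, coloured by class, with a line at the mean of the 12. Prpf8 and Snrnp200 lie above the other genes in every library, Prpf4 below them in every library, and the F0 Cast/EiJ libraries form the low group of Rp9.

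Between the F0 strains 5 of the 8 genes were called (33.8% of all genes tested), 4 higher in Cast/EiJ and 1 lower. Prpf31, Prpf3, Snrnp200 and Prpf8 were higher by 1.21-fold to 1.39-fold, and Rp9 was lower by 1.61-fold. Between the F1 alleles 4 of the 8 were called (47.0% of all), Prpf31, Snrnp200 and Prpf3 higher and Rp9 lower for Cast/EiJ. The same 4 genes were called in both comparisons in the same direction, which 22.2% of the 13055 genes in both tests were. The median log2 difference of the 8 genes was 0.21 between the strains and 0.12 between the alleles, beside 0.03 and 0.0014 over all genes tested.

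**Figure D2:**
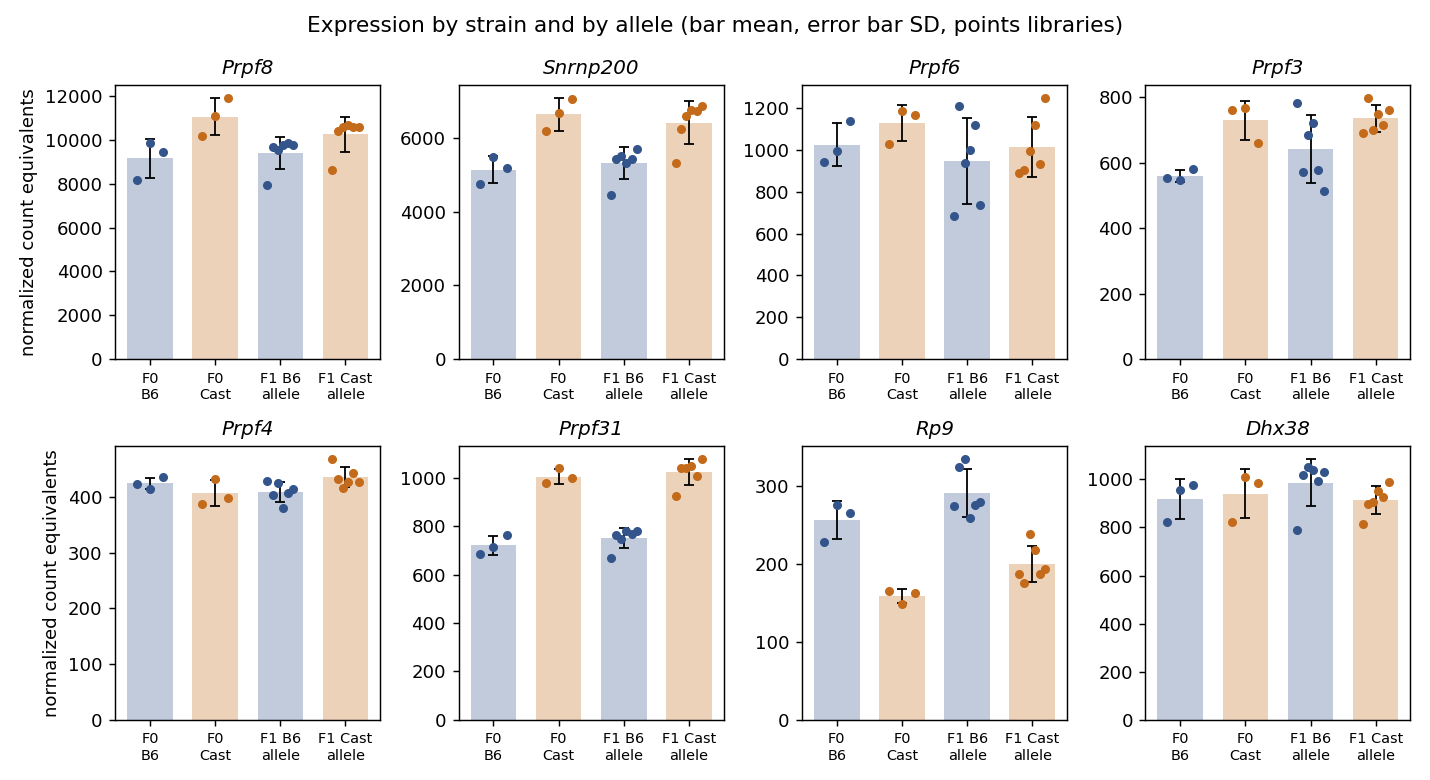
Normalized count equivalents of each gene in the 3 libraries of each F0 strain and for each allele in the 6 F1 libraries (points), with mean (bar) and SD (error bar), on axes from 0. For Prpf31 and Rp9 the Cast/EiJ and C57BL/6J points are apart in F0 and in F1, while for Prpf6, Prpf4 and Dhx38 they overlap in both.

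Prpf8, the large scaffold at the catalytic centre of the spliceosome, lies on chromosome 11 (75300279 to 75322951, plus strand, NCBI37), with 42 exons in its longest coding transcript. It had 8160, 9870 and 9440 count equivalents in the 3 F0 C57BL/6J libraries and 10200, 11100 and 11900 in the 3 F0 Cast/EiJ libraries. The strains did not overlap, but the highest C57BL/6J library, at 9870, was close to the lowest Cast/EiJ library, at 10200. The log2 difference was 0.28 (SE 0.092, 95% confidence interval 0.066 to 0.48, limma adjusted p = 0.0470), and this call was lost in 9 of 19 alternatives, among them 5 of the 6 fits that left out 1 F0 library. Without F0 C57BL/6J replicate 1 the difference was 0.19 (limma adjusted p = 0.112).

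In F1 the C57BL/6J allele of Prpf8 ranged from 7960 to 9850 with a median of 9705, and the Cast/EiJ allele from 8650 to 10700 with a median of 10600. The alleles overlapped across libraries, yet within each of the 6 libraries the Cast/EiJ allele was the higher, and the log2 ratio within a library stayed between 0.11 and 0.16. The model over all libraries gave 0.12 (SE 0.057, limma adjusted p = 0.0881), which was no call. When the ratio within each library was tested instead, its SD over the 6 libraries was 0.018 and the adjusted p was 0.000406 (limma). Prpf8 had by far the most allele-specific reads of the 8 genes, 40274 unique hits over the 6 libraries, of which the Cast/EiJ allele took 51.7% ± 0.337 (SD, n = 6), against 49.5% ± 0.0338 over all autosomal genes.

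Snrnp200 encodes the helicase that unwinds U4 from U6, and lies on chromosome 2 (127034122 to 127066187, plus strand), with 45 exons. The F0 C57BL/6J libraries held 4750, 5490 and 5200 count equivalents and the F0 Cast/EiJ libraries 6190, 6680 and 7080. All 3 Cast/EiJ libraries were above all 3 C57BL/6J libraries, which held for 48.0% of the genes tested in 1 direction or the other. The log2 difference was 0.37 (SE 0.080, limma adjusted p = 0.00750). In F1 the C57BL/6J allele ran from 4460 to 5720 with a median of 5450 and the Cast/EiJ allele from 5330 to 6880 with a median of 6665, and the Cast/EiJ allele was higher in 6 of 6 libraries. The allelic difference was 0.27 (SE 0.055, limma adjusted p = 0.000667), and it was called in each cross alone and in all 24 alternatives.

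Prpf6, which bridges the U5 and U4/U6 snRNPs, lies on chromosome 2 (181326573 to 181390365, plus strand). Its F0 libraries held 942, 998 and 1140 count equivalents in C57BL/6J and 1030, 1190 and 1170 in Cast/EiJ, and they overlapped. The log2 difference was 0.14 (95% confidence interval -0.073 to 0.35, limma adjusted p = 0.282). In F1 its alleles spanned 687 to 1210 (C57BL/6J, median 969) and 889 to 1250 (Cast/EiJ, median 964), and the ratio within a library ran from -0.42 to 0.76. Only 86 to 144 allele-specific unique hits per F1 library stand behind these values, against 708 to 959 unique hits per F0 library, and the SD that MMSEQ gave for the log level of an allele was 0.077 to 0.119. The allelic difference of 0.12 (SE 0.12, limma adjusted p = 0.444) was not detectable at this depth, and its sign turned under 4 of 24 alternatives. It lay at -0.07 in edgeR on unique hits with no scaling between the alleles, and at -0.05 on the log expression values.

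The 3 genes of the U4/U6 snRNP differed from each other in how they varied. Prpf31, which holds the U4 RNA and bridges to U5, lies on chromosome 7 (3581587 to 3594088, plus strand), with 14 exons. It had 686, 716 and 765 count equivalents in F0 C57BL/6J and 978, 1040 and 1000 in F0 Cast/EiJ, with every Cast/EiJ library above every C57BL/6J library. In F1 the C57BL/6J allele ranged from 670 to 783 with a median of 766 and the Cast/EiJ allele from 925 to 1080 with a median of 1040. Not one C57BL/6J allele value reached a Cast/EiJ value, and such a lack of overlap, in 1 direction or the other, held for 25.5% of the genes tested. The log2 difference was 0.48 between the strains (SE 0.074, limma adjusted p = 0.00132) and 0.45 between the alleles (SE 0.043, limma adjusted p = 2.1e-07). Within single F1 libraries the ratio stayed between 0.39 and 0.48, and the Cast/EiJ allele took 56.6% ± 0.733 of its unique hits (SD, n = 6, 7083 hits in all). Both calls held in every alternative, 19 for the strains and 24 for the alleles.

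An annotated lincRNA, Gm15927, lies on the opposite strand across most of Prpf31 (3583716 to 3596489). The library preparation kept no strand, so reads of the shared stretch cannot be told apart. Gm15927 itself held 6.08, 5.08 and 13.9 count equivalents in F0 C57BL/6J and 18.1, 23.1 and 18.2 in F0 Cast/EiJ. It was called higher in Cast/EiJ too, by 1.26 on the log2 scale between the strains (limma adjusted p = 0.0366) and 0.70 between the alleles (limma adjusted p = 0.0257). Its level was at most 23.1 count equivalents in any library, beside 686 or more for Prpf31 in the F0 libraries.

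Prpf3 sits with Prpf4 on the U4/U6 snRNP and lies on chromosome 3 (95634047 to 95659808, minus strand). It held 552, 548 and 581 count equivalents in F0 C57BL/6J and 762, 767 and 659 in F0 Cast/EiJ, with no overlap. The strain difference was 0.38 (SE 0.086, limma adjusted p = 0.00971). Its alleles were spread more widely, from 513 to 783 (C57BL/6J, median 632.5) and from 690 to 798 (Cast/EiJ, median 731), and the ratio within a library ran from -0.18 to 0.57. The allelic difference of 0.21 (SE 0.080, limma adjusted p = 0.0422) was the weakest of the 4 calls, was lost in 10 of 24 alternatives and rested on 186 to 273 allele-specific unique hits per library. It was 0.12 (limma adjusted p = 0.253) without F1 B6xCast replicate 2 and 0.14 (limma adjusted p = 0.195) without F1 CastxB6 replicate 3, the pools with the largest ratios. On the deposited log expression the allelic difference was smaller, 0.12 (limma adjusted p = 0.0952), with ratios within a library from -0.15 to 0.27. The measures of Prpf3 also differed in level: its F1 libraries averaged 705 and 673 count equivalents, between the F0 means of 560 and 729, but 15.1 and 14.3 FPKM, below both F0 means of 15.4 and 19.5.

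Prpf4, the partner of Prpf3, lies on chromosome 4 (62069831 to 62088024, plus strand). Count equivalents were 423, 415 and 436 in F0 C57BL/6J and 388, 433 and 399 in F0 Cast/EiJ, which overlapped. The strain difference of -0.06 (95% confidence interval -0.26 to 0.13, limma adjusted p = 0.596) was no call. Its alleles ranged from 380 to 429 (C57BL/6J, median 410.5) and from 416 to 469 (Cast/EiJ, median 430.5), and the allelic difference was 0.09 (95% confidence interval -0.0059 to 0.19, limma adjusted p = 0.116). The Cast/EiJ allele was the higher in 5 of 6 libraries.

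Rp9 and Dhx38 act outside the tri-snRNP. Rp9 encodes a nuclear protein that binds the kinase Pim1 and is tied to dominant retinitis pigmentosa, and it lies on chromosome 9 (22215491 to 22272802, minus strand). It was the only one of the 8 genes called lower in Cast/EiJ. The F0 C57BL/6J libraries held 228, 275 and 266 count equivalents and the F0 Cast/EiJ libraries 165, 148 and 163, without overlap. In F1 the C57BL/6J allele ran from 259 to 335 with a median of 277 and the Cast/EiJ allele from 176 to 238 with a median of 190.5, again without overlap. The log2 difference was -0.69 between the strains (SE 0.12, limma adjusted p = 0.00237) and -0.54 between the alleles (SE 0.078, limma adjusted p = 2.37e-05). The Cast/EiJ allele was the lower in 6 of 6 libraries and took 40.3% ± 2.92 of 2745 unique hits (SD, n = 6), although single libraries spread from -0.88 to -0.25. Both calls held in every alternative run.

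The span of Rp9 contains 2 genes on the opposite strand, 9530077C05Rik (22216021 to 22249121) and Gm17545 (22258734 to 22266506). 9530077C05Rik held 75.4 to 133 count equivalents over the 12 libraries, with a strain difference of 0.23 (limma adjusted p = 0.294) and an allelic difference of 0.05 (limma adjusted p = 0.719), neither a call. Gm17545 had 0 unique hits in all 12 libraries. The span of Prpf6 is overlapped on the opposite strand by Znf512b and Samd10, which both end before its matched promoter stretch (181335774 to 181336023). Samd10 was called between the strains at 0.43 (limma adjusted p = 0.0472) and Znf512b was not, at 0.01 (limma adjusted p = 0.978). Prpf3, Prpf4, Prpf8, Snrnp200 and Dhx38 had no overlapping gene.

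Dhx38 encodes the helicase Prp16, which remodels the spliceosome after the first step of splicing, and lies on chromosome 8 (112071917 to 112089501, minus strand). It held 822, 956 and 976 count equivalents in F0 C57BL/6J and 824, 1010 and 986 in F0 Cast/EiJ, nearly the same values. The strain difference was 0.03 (95% confidence interval -0.20 to 0.27, limma adjusted p = 0.837). The C57BL/6J allele ran from 789 to 1050 with a median of 1025 and the Cast/EiJ allele from 816 to 989 with a median of 916, and the allelic difference was -0.11 (95% confidence interval -0.25 to 0.033, limma adjusted p = 0.201). The Cast/EiJ allele was the lower in all F1 libraries but 1, F1 B6xCast replicate 1, without which the difference was -0.15 (limma adjusted p = 0.0496).

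**Figure D3:**
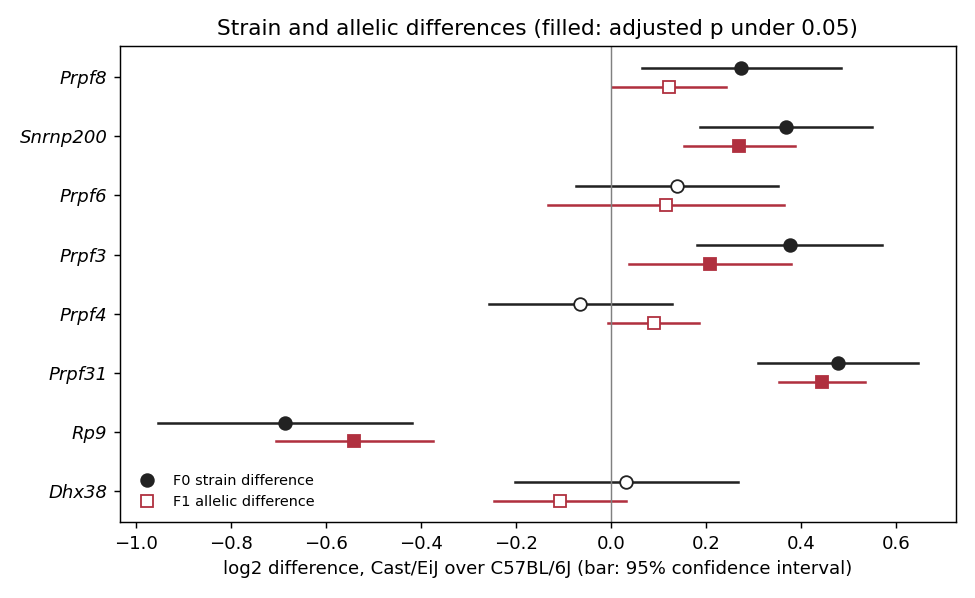
Log2 difference of Cast/EiJ over C57BL/6J for each gene between the F0 strains (circles) and between the F1 alleles (squares), with 95% confidence intervals. Filled symbols are calls: 5 in F0 and 4 in F1, with Rp9 alone on the lower side, and the 2 intervals of each gene overlap.

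Whether the strain difference was larger than the allelic difference was tested as the contrast F0 minus F1. Every F0 library was sequenced in 1 lane and every F1 library in 2, and only F1 reads were aligned to both strains' transcripts. Their effects on this contrast cannot be told apart from that of generation. None of the 8 genes was called, against 14.0% of all genes tested (5.64% with a positive contrast and 8.31% with a negative one), and none had an unadjusted p under 0.05. EdgeR on the unique hits called none either. The largest contrasts were 0.17 for Prpf3 (95% confidence interval -0.14 to 0.48, limma adjusted p = 0.491), 0.15 for Prpf8 (-0.067 to 0.37, limma adjusted p = 0.361) and -0.15 for Prpf4 (-0.33 to 0.021, limma adjusted p = 0.238). For Prpf31 the contrast was 0.03 (-0.13 to 0.20, limma adjusted p = 0.832). For Snrnp200 it was 0.10 (-0.11 to 0.31, limma adjusted p = 0.565), an interval that reaches past its allelic difference of 0.27. These contrasts do not show that strain and allelic differences were equal.

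The maternal allele was compared with the paternal allele over both crosses. Of the 8 genes none was called in limma or in edgeR and none had an unadjusted p under 0.05, while 0.492% of all genes tested were called. The log2 ratios of maternal over paternal lay between -0.11 (Prpf6) and 0.02 (Prpf31). For Prpf31 the 95% confidence interval was -0.073 to 0.11. Within F1 B6xCast and F1 CastxB6 taken alone, the allelic difference was 0.46 and 0.43 for Prpf31, 0.24 and 0.30 for Snrnp200, and -0.64 and -0.44 for Rp9, each a call in limma. Prpf3 was called in F1 CastxB6 alone, at 0.31 (limma adjusted p = 0.0476), but not in F1 B6xCast alone, at 0.11 (limma adjusted p = 0.492), while its maternal contrast, which compares the crosses, was -0.10 and no call.

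**Figure D4:**
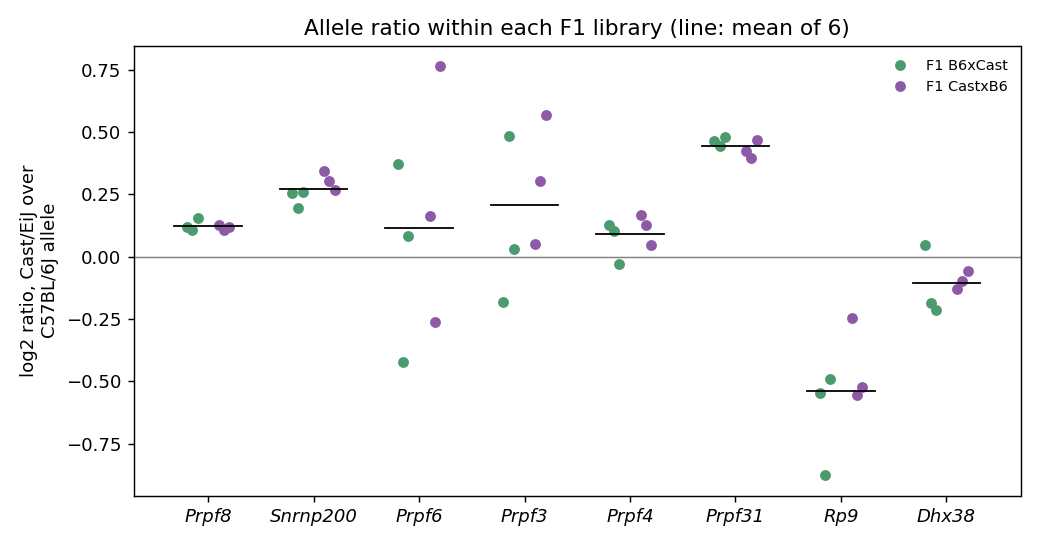
Log2 ratio of the alleles, Cast/EiJ over C57BL/6J, within each of the 6 F1 libraries, by cross, with a line at the mean of the 6. The points of Prpf8, Snrnp200 and Prpf31 lie close together above 0, those of Rp9 lie below 0, and those of Prpf6 and Prpf3 are scattered over both sides of 0.

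Some of the 8 genes also shared low libraries within a class. Prpf6, Prpf8, Prpf31, Snrnp200 and Dhx38 were each lowest in replicate 1 of F0 C57BL/6J, of F0 Cast/EiJ and of F1 B6xCast, as 15.7% of the 14452 genes tested were. In F1 B6xCast replicate 1 the Prpf8 level was 82.7% of the mean of the other 2 libraries, that of Snrnp200 82.3% and that of Dhx38 82.9%, where the median gene was at 99.3%. In F1 CastxB6 replicate 1 Prpf8 was at 100.4% and Snrnp200 at 97.7%. Prpf3 and Prpf4 did not share the pattern, with 107% for both in F1 B6xCast. Rp9 shared it in part, with replicate 1 lowest in F0 C57BL/6J (84.3%) and F1 B6xCast (85.9%) but at 106% in F0 Cast/EiJ. Without replicate 1 of both F0 strains, a choice made after the values were seen, the same number of genes, 5, was called between the strains, and Prpf8 was at 0.25 (limma adjusted p = 0.0242). The replicate numbers do not mark a shared litter or day in the labels, and the part of any such difference in these values was not tested.

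By the likeness of their levels over the 12 libraries, Prpf8 was among the 2 closest of 10249 genes to Snrnp200 (Pearson's r = 0.96, across libraries that share strains and scaling, given as a description). The closest genes were Kif1a (r = 0.98) and Hist3h2ba (0.98) for Prpf8 and Letm1 (0.98) for Snrnp200. For Prpf31 they were Nxnl2 (0.98), a thioredoxin-like gene of photoreceptors, and Gas6 (0.98). Golim4 (0.98) and Ogfod1 (0.97) were closest to Rp9, and Paip1 (0.94) and Vav2 (0.93) to Prpf3. Around the means of the 4 classes, the r of Prpf8 and Snrnp200 was 0.97. These 5 members were chosen because they were called between the strains. Of the genes closest to them only Kif1a, at 0.22, was not called (limma adjusted p = 0.0672).

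The other proteins of the spliceosome were followed in 5 lists of textbook composition that leave out the 8 genes. Of 70 genes 69 were found (Lsm8 was not), and all 69 were tested between the strains. Of these 14 were called higher in Cast/EiJ and 5 lower, 27.5% beside 33.8% of all genes, with a median log2 difference of 0.14. Between the alleles 62 were tested, of which 15 were called higher and 8 lower, 37.1% beside 47.0% of all genes, with a median of 0.01. F0 minus F1 was called for 9 of the 62 (14.5%, beside 14.0%).

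Closest to the 8 genes are the 12 partners in the tri-snRNP and U5, of which 4 were called higher and 1 lower between the strains. Txnl4a, the small U5 protein, rose the most, by 0.42 (SE 0.13, limma adjusted p = 0.0362). Ppih, the cyclophilin bound to Prpf3 and Prpf4, was the one that fell, from 151, 141 and 149 count equivalents in F0 C57BL/6J to between 97.0 and 106 in F0 Cast/EiJ (log2 -0.53, limma adjusted p = 0.0101). Its alleles went the opposite way in F1, where the Cast/EiJ allele ranged from 172 to 211 and the C57BL/6J allele from 121 to 135 (log2 0.59, SE 0.062, limma adjusted p = 6.66e-07). Unique hits of Ppih numbered 27 to 41 in a whole F0 Cast/EiJ library but 117 to 180 for the Cast/EiJ allele in F1. For C57BL/6J they numbered 52 to 56 in F0 and 38 to 56 for the allele in F1. What set these hits apart was not tested, and the turn of direction is uncertain. Between the alleles Sart3, which recycles U4/U6, fell by 0.20 on the log2 scale (limma adjusted p = 0.00917), and 2 of 11 partners were called higher and 1 lower.

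Of the 17 other helicases and step factors, 5 were called higher and 2 lower between the strains, and 6 higher and 4 lower between the alleles. Cdc40, a second-step factor, was the largest rise in both, 0.74 (limma adjusted p = 0.00137) and 0.46 (limma adjusted p = 0.000337). Its allelic value rested on 12 to 29 unique hits per allele and library. Cwc22 was the largest fall between the strains (-0.51, limma adjusted p = 0.00694) yet rose between the alleles (0.38, limma adjusted p = 0.000158), and mouse strains are known to carry differing numbers of near-identical copies of it, so its values are uncertain. Ddx39b, the export and splicing helicase, was the largest fall between the alleles (-0.44, limma adjusted p = 2.58e-08).

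The Prp19 complex held 2 calls of 11 between the strains, both higher, with Prpf19 itself at 0.47 (limma adjusted p = 0.000783), and 3 higher and 1 lower between the alleles, with Prpf19 at 0.30 (limma adjusted p = 3.43e-05) and Isy1 at -0.43 (limma adjusted p = 0.000344). Among U1 and U2 proteins 2 of 16 were called higher and 1 lower between the strains, led by Snrpa (0.28, limma adjusted p = 0.0357) and Phf5a (-0.68, limma adjusted p = 0.0141). The alleles gave 2 higher and 1 lower of 14, led by U2af1 (0.86, limma adjusted p = 4.91e-05) and Snrpb2 (-0.29, limma adjusted p = 0.0376). U2af1 rested on 11 to 35 unique hits per allele and library, and its Cast/EiJ allele was the lower in F1 CastxB6 replicate 3. In the Sm and LSm rings 1 of 13 was called higher, Snrpb at 0.76 (limma adjusted p = 0.000567), and 1 lower, Lsm7, which was listed near 0 in 2 F0 Cast/EiJ libraries and held 56.4 count equivalents in the other, so that no fold is given. The alleles gave 2 higher and 1 lower of 9 in the rings, led by Lsm5 (1.25, limma adjusted p = 5.81e-05) and Snrpd3 (-0.69, limma adjusted p = 2.49e-05). Only 2 to 17 unique hits per allele and library stand behind Lsm5, and in 4 of 6 libraries the Cast/EiJ allele had the fewer hits although it had the more count equivalents in 6 of 6. Many of these short genes have processed copies elsewhere in the genome that can share reads. The extent of such sharing was not tested, so their values are uncertain.

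**Figure D5:**
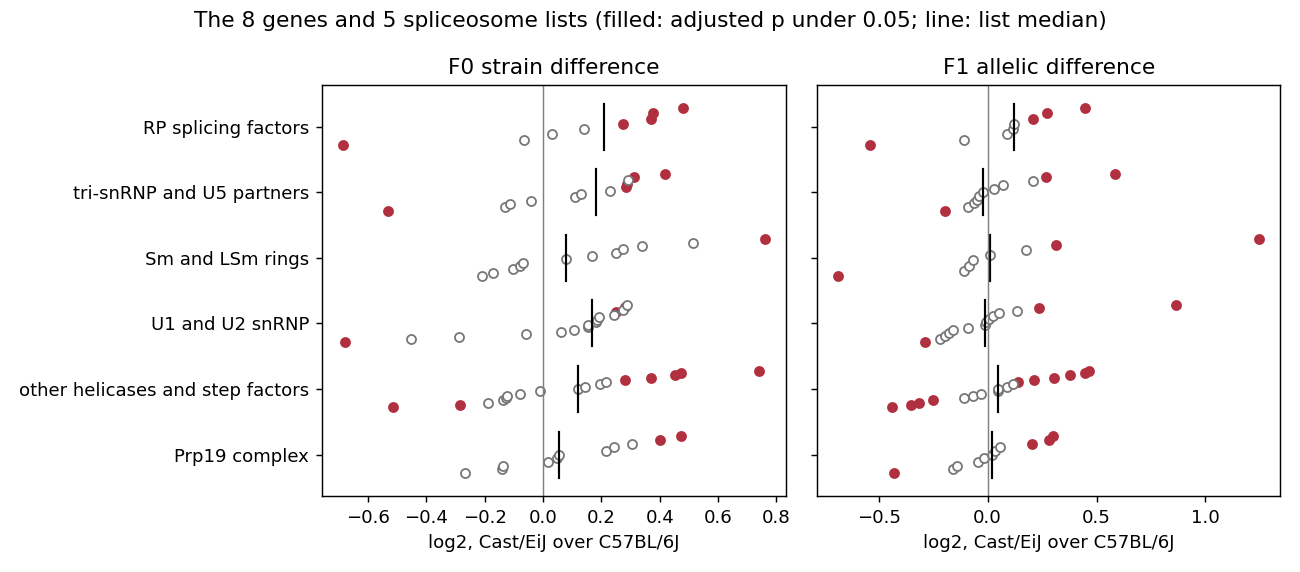
Log2 difference of Cast/EiJ over C57BL/6J for the 8 genes (RP splicing factors) and the genes of 5 spliceosome lists, between the F0 strains (left) and the F1 alleles (right). Filled points are calls and lines are medians, Lsm7 is left off both panels, and the medians of the 5 lists lie between 0.06 and 0.18 on the left and between -0.02 and 0.05 on the right.

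The retina is a mixture of cells, and in such bulk samples fewer cells of a type and less RNA per cell cannot be told apart. The summed level of 10 rod markers was 18239 to 18709 FPKM in F0 C57BL/6J and 19448 to 20387 in F0 Cast/EiJ, with 2 of 10 called higher. The median log2 difference over the 10 rod markers was 0.00047. The summed level of 8 cone markers was 533 to 592 in F0 C57BL/6J and 407 to 438 in F0 Cast/EiJ, with 1 called higher and 2 lower of 6 tested. Markers of the retinal pigment epithelium summed to 9.49 to 11.7 FPKM in F0 C57BL/6J and 3.93 to 4.98 in F0 Cast/EiJ, and blood markers to 76.1 to 115 and 35.5 to 58.0. The sums above did not overlap between the F0 strains. Those of Mueller glia, of bipolar cells, of amacrine and ganglion cells, and of lens overlapped. The part of any of these sums in the strain differences of the 8 genes was not tested.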

How the data were processed

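Members, lists and tests were chosen with earlier results of these data known. Reads were trimmed with Trim Galore 0.2.6 and aligned with Bowtie 0.12.9 by the authors (submitters' processing notes), to Ensembl 67 transcripts on NCBI37, with F1 reads aligned to both strains' transcripts. The signal values used in the tests are MMSEQ count equivalents, normalized and deposited by the authors. The natural log of expression, exponentiated here to FPKM, and its posterior SD were also estimated by the authors. Unique hits are counts deposited without normalization. Of the authors' table of model results, only a flag for polymorphic genes was used, and 36 other per-sample columns were not. Its posterior probabilities were not used.

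F0 libraries were compared with limma 3.58.1 (R 4.3.3) on log2(count equivalents + 1) over autosomal genes with at least 10 in at least 3 of 6 libraries. Alleles were fitted in 1 model with F0, the library as a block (duplicateCorrelation, consensus 0.135), over polymorphic autosomal genes with an F1 library mean of 10 or more allele-specific hits. Alternatives used edgeR 4.0.16, DESeq2 1.42.0, other filters, pseudocounts, scalings and libraries left out in turn. The fits were tested on simulated data. Named genes are the 8 members, the largest called rise and fall of each list, the 2 genes most alike in level to each member called in F0 (over genes with a mean of at least 100, using the mean of the F1 alleles in place of their sum, since each allele was scaled like a library) and genes overlapping a member. The annotation for exons was GENCODE on NCBI37.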

Additional observations from a re-analysis of the deposited data

Results flagged for a closer look

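For Prpf3, F1 B6xCast replicate 1 stood apart from the other 5 F1 libraries. The Cast/EiJ allele took 44.6% of its 240 unique hits there (Wilson 95% interval 38.4 to 50.9, counting error only), against 53.6% to 56.0% in the others, and its log2 allele ratio on FPKM was -0.15, against 0.12 to 0.27. On count equivalents the same library was also lowest, at -0.18, but not apart. Each of the 8 genes was examined on these 3 measures, 24 sets of 6 libraries, of which chance alone picks out about 1 in 20. No F0 minus F1 or maternal contrast of the 8 genes was called. The F0 minus F1 contrast was called for 6 of the spliceosome partners named above, in the log2 scale of limma. It was -1.12 for Ppih (adjusted p = 3.71e-06), whose Cast/EiJ value was the lower between the strains and the higher between the alleles in every library. Cwc22 was at -0.89 (adjusted p = 8.25e-05), with the same turn of direction. Both contrasts are uncertain, given the unique hits of Ppih and the copies of Cwc22 described above. Snrpd3 was at 0.61 (adjusted p = 0.0346) and Ddx39b at 0.36 (adjusted p = 0.00124), each called between the alleles and not between the strains. Snrpb was at 0.44 (adjusted p = 0.0383), higher in Cast/EiJ in both. Lsm7 was at -6.01 (adjusted p = 0.00396), a value set by the F0 Cast/EiJ libraries that are listed near 0 and not a measure of fold.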

How the results depend on the processing

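Prpf31 and Rp9 kept their direction and their call in all 19 alternatives between the strains and all 24 between the alleles, and Snrnp200 in all 24 between the alleles. Prpf3 and Snrnp200 each lost the strain call in 1 of 19 alternatives and Prpf8 in 9. Between the alleles Prpf3 lost its call in 10 of 24, and Prpf8, Dhx38 and Prpf4 gained one in 4, 1 and 1. Testing all genes without a filter left 3161 genes, 3 of the 8 and 9 partners called between the strains (4887, 5 and 19 otherwise). Leaving out 1 F0 library gave 12 partners (without F0 C57BL/6J replicate 2) to 20. No alternative moved the median over all genes by more than 0.1. EdgeR on unique hits put 60.1% of the allelic calls on the higher side (50.01% otherwise) and 26.9% of the F0 minus F1 calls (40.4% otherwise). Maternal calls numbered 66, and 40 in edgeR with and without scaling between alleles, 32 on weighted log expression, 103 with TMM on top (20.4% higher, 36.4% otherwise) and 38 on within-library ratios, with 0 to 1 partner when a library was left out.

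Same-numbered F0 libraries correlated in their deviations from class means at 0.33, 0.03 and 0.14, and differently numbered F0 libraries at -0.27 to 0.17. Same-numbered F1 libraries correlated at -0.12, -0.10 and -0.05. Whether a replicate number marks something shared by the F0 libraries was not tested. With a replicate block 6376 genes and 31 partners were called between the strains, 6404 genes between the alleles, 2027 for F0 minus F1 and 54 for the maternal allele, and Prpf8 was called between the alleles at 0.12 (limma adjusted p = 0.0246).

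Reversed signs concerned uncalled values, and their cause was not tested. With libraries left out in turn, Dhx38 between the strains ran from -0.045 to 0.12, the allelic value of Prpf6 from -0.019 to 0.24, F0 minus F1 of Prpf6 from -0.097 to 0.16 and of Prpf31 from -0.0036 to 0.075. Likewise the maternal contrast ran from -0.23 to 0.030 for Prpf6, -0.0025 to 0.0096 for Prpf8, -0.052 to 0.014 for Dhx38 and -0.040 to 0.0011 for Prpf4. The allelic value of Prpf6 was -0.047 on log expression, -0.071 with weights and -0.074 without scaling between alleles, an alternative added after the values were seen. The maternal contrast of Prpf31 was -0.015, -0.0096 and -0.056 on log expression, with weights and with TMM, and that of Prpf8 was -0.068 with TMM. Allele-specific unique hits numbered 86 to 144 per F1 library for Prpf6 and 186 to 273 for Prpf3.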
